A study of Homo sapiens with 6 samples.

Results

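Levels of UBB, FKBP4, HSPA4L and HSPB6, 4 genes that act in the handling of damaged or unfolded protein in the cytosol, were followed in LX-2 cells, an established human line of hepatic stellate cells labelled wild type. Treatment lasted 24 h, with DMSO as the solvent control, FEBJ (a Brucea javanica fruit extract) or cynaroside (a plant flavone glucoside), and 6 RNA libraries were sequenced, 2 for each treatment. No doses were given. Separate cultures were not stated for the libraries of a treatment, so every test measures only the spread between these libraries, which may be technical. The 4 genes were selected on their levels in these 6 libraries, in an earlier analysis, and no threshold was stated. They are 4 of 1699 genes that could be read from non-coding rows on the opposite strand. Their differences between groups are therefore descriptions, and no p-value of theirs is offered as support. Adjusted p-values were computed in edgeR over all genes of a table, and a gene is called where its value is at most 0.05.

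Cells meet misfolded protein by refolding it or by destroying it. UBB encodes a chain of ubiquitin units that is cut into the free ubiquitin used to mark proteins for the proteasome, and it is a classical gene of the heat shock response. FKBP4, also called FKBP52, is a peptidyl-prolyl isomerase that binds HSP90 and assists steroid receptors. HSPA4L belongs to the HSP110 family, which exchanges nucleotide on HSP70 chaperones, and HSPB6 is a small heat shock protein best known from muscle.

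The counts behind each gene came from annotated features on the other strand, which held far more reads than the row of the gene itself. UBB was read from ENSG00000265401, which held 161777 counts over the 6 libraries against 686 in the UBB row (ENSG00000170315). FKBP4 was read from ENSG00000258092, with 12431 counts against 643 in its own row (ENSG00000004478). HSPB6 was read from ENSG00000267328, with 343 counts against 29 in its own row (ENSG00000004776). HSPA4L was read from ENSG00000261668, with 510 counts, plus 1 count of a pseudogene row, against 78 in its own row (ENSG00000164070). The strand setting of the authors' counting was not given in the sources used here, so a read of the gene and a read of its antisense partner cannot be told apart.

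These features differed in how much of the named gene they cover in GENCODE release 29. All 461 exon bases of the UBB feature lay opposite UBB exons, 386 of them coding, which was 56.2% of the UBB coding sequence. Of the 287 exon bases of the FKBP4 feature, 285 lay opposite FKBP4 exons, 135 of them coding. The HSPB6 feature lay opposite HSPB6 for 657 of 660 bases, all past the coding sequence. Only 536 of 3843 bases of the HSPA4L feature, or 13.9%, lay opposite HSPA4L exons, and the other 3307 lay outside the gene. The HSPA4L reading is for that reason the least certain of the 4.

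The UBB coding bases opposite its feature are shown because the gene is built of near-identical repeats that its pseudogenes share. The 3 ubiquitin units of 228 bases in UBB were 94.7 to 96.5% identical to each other. Below are the last 300 bases of the longer of both covered stretches, which spans coding bases 245 to 603 counted from the A of the start codon, in the strand of UBB, from the GENCODE release 29 transcript sequence. Capitals mark bases that lie in a run of 50 bases also present in a transcript of the pseudogenes UBBP1 or UBBP4.
UBB, coding bases 304 to 603: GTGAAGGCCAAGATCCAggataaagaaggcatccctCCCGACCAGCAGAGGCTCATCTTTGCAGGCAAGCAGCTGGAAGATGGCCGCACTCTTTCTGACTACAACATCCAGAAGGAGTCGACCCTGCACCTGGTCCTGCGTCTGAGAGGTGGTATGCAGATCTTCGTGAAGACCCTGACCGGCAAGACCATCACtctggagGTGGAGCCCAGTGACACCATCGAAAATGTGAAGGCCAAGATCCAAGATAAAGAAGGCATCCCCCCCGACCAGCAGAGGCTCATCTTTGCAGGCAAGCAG
In the full stretch 333 of 359 bases were of that kind. Over the whole feature 145 of 412 runs of 50 bases, or 35.2%, were shared with another gene, and 4 of 362 runs of 100 bases. How the authors treated reads that fit several places was not stated, so the UBB level is uncertain to that extent. The rows of the pseudogenes UBBP1 to UBBP5 held 0 counts in all 6 libraries. As the own row of UBB also held few counts, this cannot show whether reads of the pseudogenes entered the UBB level. The FKBP4 and HSPB6 features had 0 shared runs of 50 bases, and the HSPA4L feature had 7 of 3794.

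The heat shock factor HSF1 binds inverted repeats of the letters GAA, and the promoters of HSPB6 and HSPA4L are shown because both held such a repeat. RefSeq promoters (GRCh38.p14, 250 bases before to 50 after a start) were searched on both strands for GAANNTTC and TTCNNGAA, each of which reads the same on both strands. The bases before the start are printed with the matches in capitals. The positions belong to GRCh38.p14, while the counts were made on hg19.
HSPB6, chr19:35757030-35757279, minus strand: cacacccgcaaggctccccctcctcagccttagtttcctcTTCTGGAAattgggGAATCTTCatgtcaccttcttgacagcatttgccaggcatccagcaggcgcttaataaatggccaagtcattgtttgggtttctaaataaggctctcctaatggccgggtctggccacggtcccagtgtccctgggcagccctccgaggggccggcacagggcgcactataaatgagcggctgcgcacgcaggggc
HSPA4L, chr4:127782072-127782321, plus strand: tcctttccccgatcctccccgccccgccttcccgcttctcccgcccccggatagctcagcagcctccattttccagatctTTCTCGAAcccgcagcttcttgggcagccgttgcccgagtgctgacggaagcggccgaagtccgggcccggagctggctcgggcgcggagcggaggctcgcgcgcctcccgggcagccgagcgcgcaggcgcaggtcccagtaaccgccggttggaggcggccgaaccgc
HSPB6 held TTCNNGAA and GAANNTTC, which begin 210 and 196 bases before the start. HSPA4L held TTCNNGAA, 170 bases before 1 of its 3 listed starts. Neither motif was found at the 2 listed starts of UBB. FKBP4 had no entry among these promoters and was not searched. Of 27305 promoters, 1 per gene, 13.7% held at least 1 of these motifs, as did 8.73% of 1145 promoters of genes tested here and 17.5% of 143 promoters of the proteostasis lists described below. These shares used 1 promoter per gene, whereas UBB, HSPA4L and HSPB6 were searched at every listed start. The matches of these genes therefore cannot be compared directly with the shares. For HSPA4L, whether a motif is counted depends on which of its starts is taken. Each motif holds only 2 units of the repeat, and no match printed above extends to 3. A 3-unit form was held by 0.487% of the 27305 promoters. It was held by 0.175% of promoters of tested genes and 3.5% of those of the proteostasis lists. A match is only a match of letters, and binding of HSF1 was not tested.

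Gene rows held 1599000 to 4709317 counts per library, 5.48 to 6.12% of all counts in a table. Of 14 stellate markers 11 held counts in own rows, with COL1A2, DES and LRAT at 0. Summed over the list, these own rows held 1187 to 1195 counts per 1000000 gene-row counts in DMSO, 189 to 190 after FEBJ and 204 to 266 after cynaroside. The LOX row went against that sum, with 93 and 108 counts in DMSO and 215 and 353 after FEBJ. As the UBB row below went against its opposite reading after FEBJ, an own row is not read here as the level of its marker. Of 9 hepatocyte markers 5 held counts in own rows, with ALB, FGB, HNF4A and TTR at 0, and they summed to 0.537 to 0.788 in DMSO, 12.2 to 13.6 after FEBJ and 0 to 1.7 after cynaroside. SERPINA1 gave most of this, with 27 and 37 counts in the FEBJ libraries and at most 2 in any other. Of 6 macrophage markers 4 held counts, with PTPRC and CD163 at 0, and they summed to 2.15 to 4.33 in DMSO, 9.97 to 12.2 after FEBJ and 3.61 to 6.25 after cynaroside. Of 6 endothelial markers 3 held counts, with CDH5, PECAM1 and VWF at 0, and they summed to 1.58 to 6.58 over all libraries. Of 7 epithelial markers 5 held counts in own rows, mostly KRT8, with EPCAM and KRT19 at 0, and they summed to 1797 to 1804 in DMSO, 1525 to 1545 after FEBJ and 568 to 605 after cynaroside. Read from the opposite strand, 2 epithelial markers summed to 59.7 to 64.6 in DMSO, 353 to 421 after FEBJ and 23.4 to 38.8 after cynaroside. From the same strand, 5 stellate markers summed to 49375 to 49765 in DMSO, 27520 to 27575 after FEBJ and 42423 to 42583 after cynaroside. The part of these markers in the results below was not tested. In bulk RNA, fewer cells of a kind and less RNA per cell cannot be told apart.

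UBB stood highest in both FEBJ libraries and lowest in both cynaroside libraries. Levels are in CPM, counts per 1000000 of the library size of the opposite-strand reading after TMM scaling. UBB was at 18940 and 19294 CPM in the DMSO libraries, at 32730 and 32281 CPM in the FEBJ libraries, and at 13759 and 13774 CPM in the cynaroside libraries. By this scale the 3 groups did not overlap, and the libraries of a group differed far less than the groups did. Here and for the genes below, such separation only describes genes picked on these levels. How many of all tested genes show it was not computed. After FEBJ the level was 1.7-fold that in DMSO (log2 fold change 0.77 ± 0.02, standard error). After cynaroside it was lower by this scale (log2 fold change -0.47 ± 0.02), but was not called when libraries were scaled by all deposited rows (log2 fold change -0.02, edgeR adjusted p = 0.771). By that second scaling the cynaroside libraries, at 6315 and 6825 CPM, overlapped the DMSO libraries, at 6581 and 6726 CPM. Within the opposite-strand reading UBB was 2.36-fold higher with FEBJ than with cynaroside (1.24 ± 0.02). UBB had the fifth highest mean level of the 1443 genes tested in this reading.

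FKBP4 had the same order of groups as UBB, over a narrower range. The DMSO libraries had 1687 and 1734 CPM, the FEBJ libraries 2050 and 2025 CPM, and the cynaroside libraries 1279 and 1253 CPM. Within this reading the groups did not overlap, although FEBJ was only 1.19-fold above DMSO (log2 fold change 0.25 ± 0.06). FKBP4 was lower after cynaroside within this reading (-0.44 ± 0.06). Scaled by all deposited rows, that difference was no longer negative or called (0.02, edgeR adjusted p = 0.813). The cynaroside libraries, then at 587 and 621 CPM, overlapped the DMSO libraries, at 586 and 605 CPM.

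Ratios of counts within a library do not depend on the scaling. UBB held 11.2 and 11.1 counts per FKBP4 count in the DMSO libraries, 16.0 and 15.9 in the FEBJ libraries, and 10.8 and 11.0 in the cynaroside libraries. The ratio in both FEBJ libraries was thus above that in the other 4, which lay close together. HSPA4L had 1.13 and 1.27 counts per 1000 UBB counts with DMSO, 4.86 and 3.97 with FEBJ, and 3.48 and 2.92 with cynaroside, so that relative to UBB it was higher in all 4 treated libraries. HSPB6 had 1.29 and 1.77 with DMSO, 2.76 and 2.44 with FEBJ, and 2.17 and 1.7 with cynaroside, where the last group overlapped DMSO.

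HSPA4L had the largest fold of the 4 genes after FEBJ. It was read from few counts, 21 and 35 in the DMSO libraries, 162 and 182 in the FEBJ libraries and 32 and 79 in the cynaroside libraries. Its levels were 21.4 and 24.4 CPM with DMSO, 159 and 128 CPM with FEBJ, and 47.8 and 40.2 CPM with cynaroside. Every FEBJ library lay above every cynaroside library, and every cynaroside library above every DMSO library. FEBJ was 6.18-fold above DMSO (log2 fold change 2.63 ± 0.29, 95% interval 2.05 to 3.2) and 3.32-fold above cynaroside (1.73 ± 0.27). Standard errors and intervals in this reading rest on a spread estimated largely over all genes together, not on the libraries of a single gene. Cynaroside was 1.86-fold above DMSO (0.90 ± 0.33, edgeR adjusted p = 0.0175). That call ended without DMSO 1 (0.81, edgeR adjusted p = 0.106), without DMSO 2 (1.00, edgeR adjusted p = 0.0606) and without cynaroside 1 (0.82, edgeR adjusted p = 0.0609).

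HSPB6 was higher after FEBJ and close to DMSO after cynaroside. Its feature held 24 and 49 counts with DMSO, 92 and 112 with FEBJ, and 20 and 46 with cynaroside. This gave 24.4 and 34.2 CPM for the DMSO libraries, 90.4 and 78.8 CPM for the FEBJ libraries, and 29.9 and 23.4 CPM for the cynaroside libraries. Both FEBJ libraries lay above the other 4, and the DMSO and cynaroside libraries overlapped. FEBJ was 2.83-fold above DMSO (log2 fold change 1.50 ± 0.34, 95% interval 0.84 to 2.16) and 3.27-fold above cynaroside (1.71 ± 0.35). The log2 difference between cynaroside and DMSO was -0.21 with a 95% interval of -0.95 to 0.53, and 0.26 when scaled by all deposited rows, so no direction can be given at this depth.

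**Figure D1:**
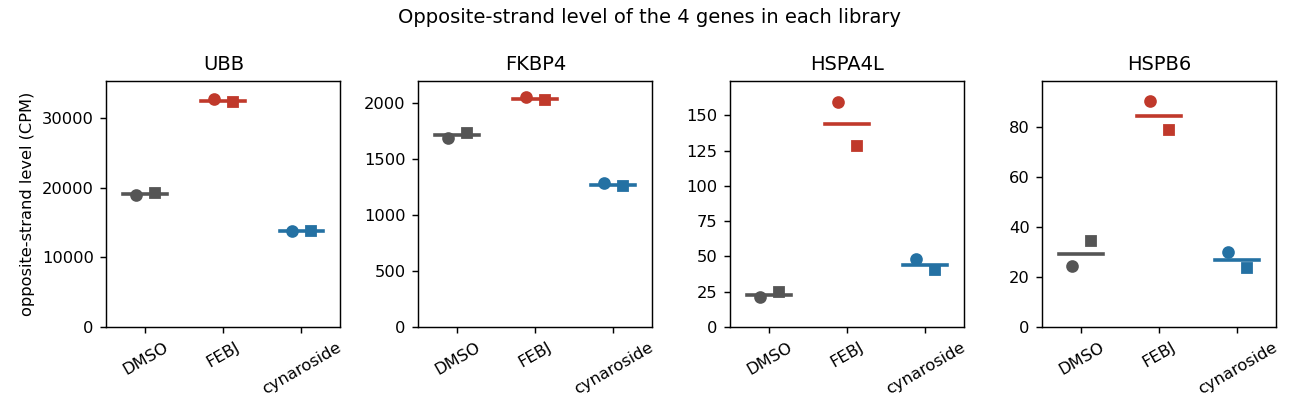
Opposite-strand level in CPM (vertical axis, from 0) of UBB, FKBP4, HSPA4L and HSPB6 by group. Circles are library 1, squares library 2 and lines the group mean, and both FEBJ libraries are the highest of the 6 in every panel. The genes were picked with these levels known.

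All 4 genes were past the threshold, an adjusted p of at most 0.05, in the comparison of FEBJ with DMSO, and all were higher after FEBJ. In that comparison 70.5% of 1443 genes were called and 35.8% were called higher, 34.7% lower. Against cynaroside, FEBJ was likewise higher for all 4, where 69.5% of genes were called and 35.3% called higher, 34.2% lower. With cynaroside against DMSO, HSPA4L was called higher, UBB and FKBP4 were called lower and HSPB6 was not called, where 41.7% of genes were called, 20.2% higher and 21.6% lower. As the genes were picked with these results known, nothing is read from the counts, nor from groups that did not overlap. The share of all 1443 genes with groups that did not overlap was not computed. The comparisons with DMSO share the same DMSO libraries, so they are not independent of each other.

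Scaling moved all genes of the reading together. With library sizes and TMM factors of all deposited rows, the median log2 fold change of the 1443 genes went from 0.05 to 0.27 for FEBJ and from -0.01 to 0.45 for cynaroside, against DMSO. UBB, FKBP4, HSPA4L and HSPB6 were then at 0.98, 0.47, 2.84 and 1.72 log2 after FEBJ. After cynaroside UBB and FKBP4 lay below the median of all genes by both scalings. The order of the 3 groups for UBB and FKBP4 is thus set partly by the scaling, whereas FEBJ was the highest group by both scalings.

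**Figure D2:**
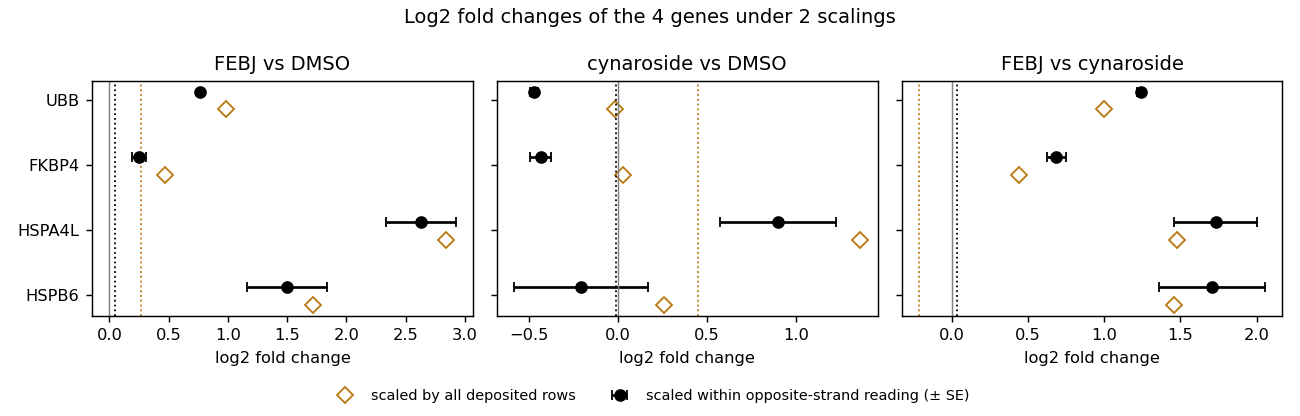
Log2 fold change (horizontal axis) of the 4 genes in each comparison, within the opposite-strand reading (black, ± standard error) and scaled by all deposited rows (open diamonds). Dotted lines mark the median of all 1443 genes in each scaling; for cynaroside against DMSO, UBB and FKBP4 lie near 0 by the second scaling.

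Per kilobase of the counted feature, the genes differed by orders of magnitude. UBB was at 41468 ± 542 CPM per kilobase in DMSO (SD, n = 2), FKBP4 at 5961 ± 116, HSPB6 at 44.4 ± 10.5 and HSPA4L at 5.95 ± 0.561. After FEBJ the order was the same, with UBB at 70510 ± 689, FKBP4 at 7099 ± 60.8, HSPB6 at 128 ± 12.4 and HSPA4L at 37.4 ± 5.73. After cynaroside HSPB6 was at 40.4 ± 6.96 and HSPA4L at 11.5 ± 1.41. No neighbours in this order overlapped in any group. The lengths are those of the features, most of which, for HSPA4L, lies outside the gene.

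The own row of UBB was lower after FEBJ than in DMSO, opposite in sign to the reading from the other strand, while its differences in the other 2 comparisons had the same sign. Its counts were 189 and 302 with DMSO, 55 and 88 with FEBJ, and 4 and 48 with cynaroside. As a percent of the opposite row this was 1.01 and 1.09% with DMSO, 0.165 and 0.192% with FEBJ, and 0.0435 and 0.177% with cynaroside. In the fit of deposited rows, where 50.8% of rows were called for FEBJ against DMSO, the log2 fold change of the UBB row was -1.58 ± 0.30 for FEBJ against DMSO, -2.97 ± 0.34 for cynaroside against DMSO and 1.40 ± 0.36 for FEBJ against cynaroside, all called. For FKBP4 the own row was 7.17 and 8.16% of the opposite row with DMSO, 3.93 and 4.27% with FEBJ, and 3.27 and 3.57% with cynaroside. The log2 fold change of the FKBP4 row was -0.44 ± 0.25 for FEBJ against DMSO, not called and differing in sign from the opposite reading. It was -1.12 ± 0.27 for cynaroside against DMSO and 0.68 ± 0.28 for FEBJ against cynaroside. Both were called and of the same sign as the opposite reading. The HSPA4L row held 4 and 4 counts with DMSO, 16 and 15 with FEBJ, and 3 and 36 with cynaroside, so that the cynaroside libraries stood apart from each other. Its log2 fold change was 2.13 ± 0.92 for FEBJ against DMSO, not called, and 2.32 ± 0.92 for cynaroside against DMSO, called. For FEBJ against cynaroside it was -0.19 ± 0.80, not called and differing in sign from the opposite reading. The HSPB6 row held at most 10 counts in any library and was not tested. The part of these own rows in the result was not tested.

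**Figure D3:**
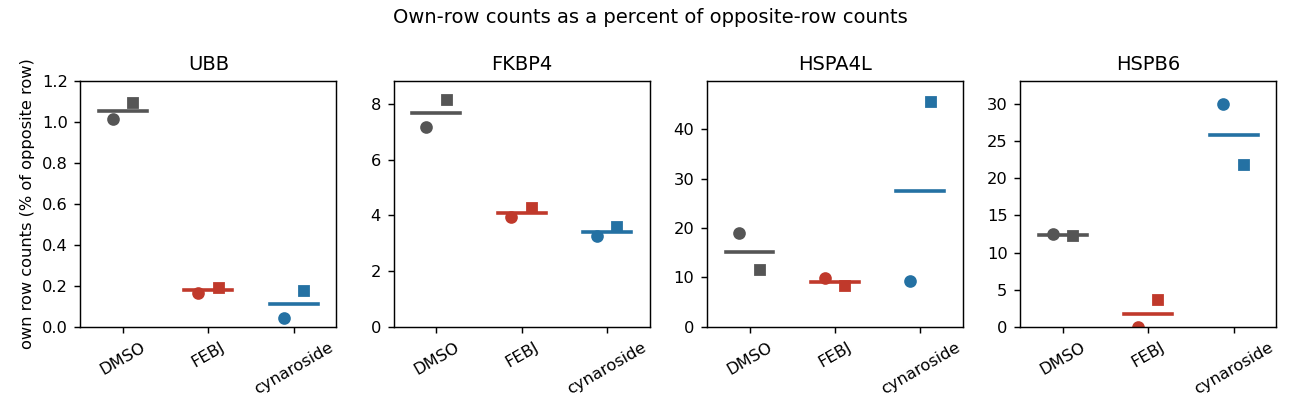
Counts of a gene's own row as a percent of its opposite row (vertical axis, from 0), by group, with circles for library 1, squares for library 2 and lines for the mean. For UBB and FKBP4 both DMSO libraries are above the other 4, while cynaroside 2 is highest for HSPA4L at 45.6%.

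Other genes of protein quality control were taken from 9 lists of 171 genes, written with earlier results known. Of the 167 genes that are not among the 4, only 15 were tested in the opposite-strand reading. After FEBJ 3 of these 15 rose and 7 fell, where 35.8% of all 1443 genes rose and 34.7% fell, with a median log2 fold change of -0.23 against 0.05 for all 1443 genes. After cynaroside 1 rose and 5 fell, where 20.2% of all genes rose and 21.6% fell, with a median of -0.11 against -0.01. Of the 5 that fell, ADRM1 and UFD1 turned above 0 by the scaling of all rows. With so few genes measured, most chaperones could not be read, and 0 of 14 J-domain proteins, the HSP70 partners that deliver substrates, were tested.

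Of 46 proteasome genes listed 4 were tested, and after FEBJ 2 rose, 1 fell and PSMA2 was not called, against 35.8% of all genes risen and 34.7% fallen. ADRM1, a ubiquitin receptor of the regulatory particle, rose from 1818 ± 33.7 to 3525 ± 39.4 CPM (log2 fold change 0.95 ± 0.05). PSMD7, a scaffold subunit beside the deubiquitinase of the lid, rose from 1857 ± 6.99 to 2807 ± 79.3 CPM (0.60 ± 0.05). PSMD11, a further lid subunit, fell from 479 ± 31.1 to 346 ± 44.7 CPM (-0.46 ± 0.13), although not by the scaling of all rows (-0.25, edgeR adjusted p = 0.0844). Only 18.2, 25.5 and 19.6% of the feature lay opposite the gene for ADRM1, PSMD7 and PSMD11. NFE2L1, the transcription factor that drives proteasome genes when the proteasome is impaired, fell from 1800 ± 26.5 to 914 ± 52.0 CPM (-0.97 ± 0.06).

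Genes that unfold or clear ubiquitin-marked protein were called in both directions after FEBJ, with 1 of 6 risen and 3 fallen, against 35.8% and 34.7% of all genes. UFD1, a partner of the VCP unfoldase, rose from 926 ± 62.3 to 1261 ± 38.0 CPM (0.45 ± 0.08). WDFY3, an adaptor that links aggregates to autophagy, fell from 161 ± 6.28 to 44.2 ± 18.1 CPM (-1.82 ± 0.22), and the autophagy receptor TAX1BP1 from 147 ± 34.0 to 90.2 ± 6.70 CPM (-0.68 ± 0.21). The TAX1BP1 call ended without DMSO 1 (-0.45, edgeR adjusted p = 0.119). The third that fell, UBQLN1, which brings ubiquitinated protein to the proteasome, was named after its values were seen. It went from 976 ± 22.7 to 828 ± 4.25 CPM (-0.23 ± 0.08), and was not called by the scaling of all rows (-0.02, edgeR adjusted p = 0.854). From the list of ubiquitin precursors, activation and recycling, UBE2D3, a ubiquitin-conjugating enzyme, fell from 269 ± 3.16 to 157 ± 4.83 CPM (-0.78 ± 0.16). The share of the feature opposite the gene was 84.0% for WDFY3, but 24.8, 14.7, 10.3 and 11.9% for UFD1, TAX1BP1, UBQLN1 and UBE2D3.

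Both tested subunits of TRiC, the chaperonin that folds actin and tubulin, fell after cynaroside, where 21.6% of all genes fell. CCT4 went from 1386 ± 2.13 to 802 ± 94.4 CPM (-0.77 ± 0.07) and CCT5 from 7196 ± 106 to 4639 ± 35.1 CPM (-0.63 ± 0.04). After FEBJ CCT5 fell to 5129 ± 188 CPM (-0.49 ± 0.04), while CCT4, at 1250 ± 67.9 CPM, was not called (-0.15 ± 0.07). Settings that called CCT4 lower included no filter on low counts (-0.16, edgeR adjusted p = 0.0314) and upper-quartile scaling (-0.22, edgeR adjusted p = 0.00877). By the scaling of all rows CCT4 was not lower (0.07). The share of the feature opposite the gene was 34.3% for CCT4 and 68.9% for CCT5. PSMD11 also fell after cynaroside, to 237 ± 32.7 CPM (-0.99 ± 0.13). These cynaroside falls kept their sign and call when scaled by all rows, at -0.31, -0.18 and -0.52 for CCT4, CCT5 and PSMD11. ADRM1 and UFD1 were called lower after cynaroside within the reading (-0.26 ± 0.05 and -0.34 ± 0.08), but both turned above 0 by the scaling of all rows (0.20 and 0.13), and the UFD1 call ended without cynaroside 1 (-0.22, edgeR adjusted p = 0.0650).

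**Figure D4:**
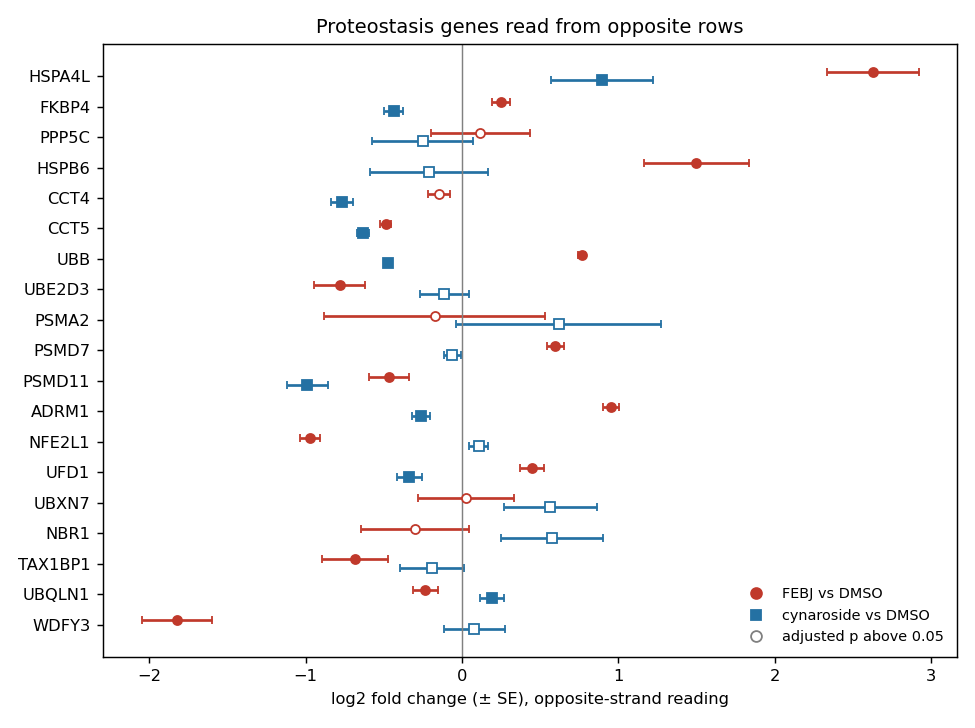
Log2 fold change against DMSO (horizontal axis, ± standard error) of the 19 listed genes tested in the opposite-strand reading, for FEBJ (red circles) and cynaroside (blue squares), with open symbols where the adjusted p was above 0.05. HSPA4L has the largest rise and WDFY3 the largest fall after FEBJ.

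In the rows as deposited, 138 of the 167 other listed genes were tested, and 14 rose and 59 fell after FEBJ, where 26.0% of 12012 rows were called higher and 24.8% called lower. After cynaroside 16 rose and 70 fell, where 45.4% of rows were called, 24.3% higher and 21.1% lower. FEBJ against cynaroside gave 29 higher and 15 lower, where 41.9% were called, 21.5% higher and 20.4% lower. Of the 14 rows that rose after FEBJ, 12 lay opposite exons of another protein-coding gene, as did 14 of the 59 that fell. Of the 65 rows not called, 17 did so. Whether such overlap had a part in these calls was not tested. Median log2 fold changes of the 138 rows were -1.11 after FEBJ and -1.49 after cynaroside, against -0.06 and 0.02 for all rows. As with the UBB row, such a row was not read as the level of the gene it names.

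Among 1382 other genes of the reading with a mean of at least 10 CPM, those most like each member were found by the root mean square difference of centred log2(CPM + 1) over the 6 libraries. For UBB they included the immediate early gene IER2 and FAM86C1, at 0.032 and 0.063 log2. For FKBP4 they were LSM1, of mRNA decay, CCDC32 and MRPL4, of the mitochondrial ribosome, at 0.056, 0.064 and 0.066. For HSPA4L they were NFXL1, the clock gene PER2 and MDC1, of the DNA damage response, at 0.12, 0.21 and 0.22. For HSPB6 they were LYPLAL1, the ubiquitin ligase TRIM11 and the scaffold KSR1, at 0.11, 0.11 and 0.13. Among the members themselves the differences ran from 0.25 between UBB and FKBP4 to 0.97 between FKBP4 and HSPA4L. These cannot be compared with the values above, which are the smallest of 1382, with the members left out of that search.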

How the data were processed

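Per the submitters' processing notes, the tools were CASAVA 1.7, HISAT2, HTSeq 0.12.4 and DESeq2 1.38.0 and the build was hg19. The authors deposited a table of raw counts per library, with 62754 gene rows. The library kit, the strand setting and the annotation release are not given in the sources used here. The 5 summary rows, with 87.4 to 88.3% of counts outside features, were left out. A non-coding row was read as a protein-coding gene if it overlapped that gene's exons, and no other gene's, by at least 50 bp on the other strand (GENCODE release 29) and had no fewer counts than the gene's own row; for the 4 genes described, that last condition was not applied. The 1828 rows so assigned gave 1699 genes. After filterByExpr, 1443 genes, and separately 12012 deposited rows, were scaled by TMM and fitted with edgeR 4.0.16 in R 4.3.3 with 3 group means over all 6 libraries. Quasi-likelihood tests were adjusted by Benjamini-Hochberg within a comparison, with a threshold of 0.05. On simulated data for FEBJ against DMSO, 87% of 2-fold and 97% of 4-fold changes were found among 1423 genes. There 100 genes were changed at each fold, and 8 unchanged genes were called. The simulation gave all genes the same spread and changed far fewer genes than were called in the data, so these rates need not hold here.

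The members, the lists and the rule for named genes were chosen with earlier results of these data known. The rule took the 4 members, all tested genes of lists with 4 or fewer, otherwise the 2 risen and 2 fallen with the smallest p, and the 3 genes most like each member. Of the genes most like UBB, 1 is not reported here. Alternatives were scaling by upper quartile or RLE, no filter, 1 CPM in 2 libraries, a prior count of 2, a replicate block, leaving out each library, only the 4 libraries compared, DESeq2 1.42.0, other sums of rows, and, added after seeing the data, each table scaled by the other. Within a group, libraries differed by more than counting noise (mean chi-square per row 3.03 to 3.20), so none was taken for 1 library deposited again; this does not show that they came from separate cultures.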

Additional observations from a re-analysis of the deposited data

How the results depend on the processing

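For the 4 genes in the comparisons of FEBJ with DMSO and with cynaroside, 144 of 144 alternative values kept direction and call. The genes were picked on these same counts, so this adds no support to their differences. The share of all 1443 genes that kept direction and call was not computed. Cynaroside against DMSO was less stable. The log2 fold change of UBB was -0.0177 both with member sums in the table of all rows and with the most abundant row alone (edgeR adjusted p = 0.782), and -0.0173 with the scaling of all rows (0.771), while that of FKBP4 was 0.0234, 0.0234 and 0.0244. HSPA4L was at 0.93 with DESeq2 (adjusted p = 0.0528) and 0.93 with only the 4 libraries compared (edgeR adjusted p = 0.0569), and ran from 0.81 to 1.05 when single libraries were left out. With the scaling of all rows, 739 genes rose and 100 fell after cynaroside, against 291 and 311, and after FEBJ 611 rose and 418 fell, against 517 and 500. For FEBJ against cynaroside, 412 rose and 593 fell, against 510 and 493. UFD1, PSMD7, ADRM1 and UBE2D3 then turned to 0.13, 0.40, 0.20 and 0.35 for cynaroside against DMSO, and CCT5 to -0.10 for FEBJ against cynaroside. Deposited rows scaled by the opposite-strand reading gave 1429 risen and 3810 fallen after cynaroside, against 2917 and 2537, 2636 and 3617 after FEBJ, against 3125 and 2982, and 3271 and 1994 for FEBJ against cynaroside, against 2579 and 2455. Leaving out single libraries, fallen rows after cynaroside numbered 1543 to 2649, with 1618 without DMSO 1 and 1543 without DMSO 2. Replicate numbers did not pair the libraries (correlations of replicate differences -0.04 to 0.09), and a replicate block gave 515 risen and 496 fallen genes after FEBJ and 279 and 307 after cynaroside. It changed no call of the 4 genes, with HSPA4L after cynaroside at 0.90 (edgeR adjusted p = 0.0158). Depth limits HSPA4L and HSPB6, with 20 to 79 counts in each DMSO or cynaroside library. For the other named genes, 496 of 528 alternative values stayed on their side of the threshold without a called value changing sign, 11 gained and 16 lost a call, and the 5 above changed sign. Values called in neither setting also changed sign for CCT4 after FEBJ (0.07 by the scaling of all rows), for TAX1BP1 after cynaroside (0.05 without DMSO 1, 0.27 by the scaling of all rows) and for HSPB6 after cynaroside (up to 0.27).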
